A study of Homo sapiens with 12 samples.

Results

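The comparison described here set cells that received the native AIPL1 gene, AAV9-AIPL1wt, against cells that received a green fluorescent protein gene in the same capsid, AAV9-GFP. It asks which transcripts differed between cells that had all been transduced. Each vector was made with its own transfer plasmid, so transgene and vector preparation cannot be told apart. It took 6 of the 12 RNA-seq libraries of the study, 3 of each vector, and all genes of the count table: of 62757 genes, 33604 had no read in these 6 libraries, and 13896 passed the filter on low counts and were tested. All cells were ARPE-19, an established line of human retinal pigment epithelium (RPE), and all of them, those of the control libraries included, had been kept for 120 h in 3 µM fenretinide, a synthetic retinoid used to drive trans-differentiation towards a neuron-like state. They then received AAV9-AIPL1wt or AAV9-GFP at 100000 vector genomes per cell. Cells were lysed 18 or 24 h after transduction, since the sources used here differ on this. The other libraries were AAV9-AIPL1co, with a codon-optimized AIPL1 sequence, and the non-transduced control. They enter below as a direct test of AAV9-AIPL1wt against AAV9-AIPL1co and as the level without a vector. A single cell line was used, and each library is a replicate culture of it.

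AIPL1 is a co-chaperone of photoreceptors that works with HSP90 to fold the rod and cone phosphodiesterase PDE6, and its loss causes a severe childhood blindness. It has no known task in pigment epithelium. AAV9 is a small DNA virus capsid used to carry genes into cells. Cells recognize foreign nucleic acid with sensor proteins that switch on type I interferon and, through factors of the STAT and IRF families, a large set of interferon-stimulated genes whose products block viral replication. Cells entering the S phase switch on the genes of DNA synthesis through E2F factors, which are held in check by proteins of the RB family in resting cells.

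The 6 libraries held 10088882 to 12704322 reads and 6322811 to 8845574 gene counts each. AAV9-AIPL1wt replicate 1 was the library with the lowest gene count, the lowest share of uniquely mapped reads (74.8%, against 81.9 to 85.5% in the other 5) and the highest share of reads at several loci (24.3%, against 13.8 to 17.4%). AAV9-AIPL1wt replicate 2 differed most from its own replicates, with a chi-square per degree of freedom over genes of 15.2 and 10.1, against 6.63 between replicates 1 and 3 and 3.33 to 4.12 within AAV9-GFP. Replicates 1 and 3 of both vectors share 1 date in their file names and replicate 2 of both has the other, so date and vector were balanced. The non-transduced control libraries used below, replicates 2 and 3, both have that other date. Differences of a vector from the control are thus partly mixed with date. Counts on the forward strand made up 50.2% of each library, and reads of genes that overlap on opposite strands cannot be separated. Values below are normalized counts, that is counts scaled by TMM to the same effective depth (1 normalized count is 0.129 CPM), given for replicates 1, 2 and 3 in that order.

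The transgene itself could not be used to check the AAV9-AIPL1wt label. The entry for the native AIPL1 vector sequence had 0 counts in each of the 12 libraries, where a count of 0 allows up to 3 reads, and the human AIPL1 gene had 1, 0 and 0 reads with AAV9-AIPL1wt and 1, 0 and 1 with AAV9-GFP. Of the GFP vector entries, GFP_CBg had 2, 1 and 4 reads in the AAV9-GFP libraries and 0 in the others. The other, GFPg, had 0 in each of the 12 libraries, AAV9-GFP included. The codon-optimized entry had reads in the AAV9-AIPL1co libraries alone, 11, 13 and 19. Why the native entry had none was not tested.

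Of 27 RPE genes 15 were measurable, and 0 rose and 2 fell with AAV9-AIPL1wt (keratin KRT8 and retinol dehydrogenase RDH10), where 25.6% of all genes tested rose and 25.5% fell at the same adjusted p under 0.05. The call of KRT8 was lost without AAV9-GFP replicate 1, without AAV9-GFP replicate 3 and with all 12 libraries. Their summed level ranged from 14368 to 15362 normalized counts with AAV9-AIPL1wt and from 14745 to 16008 with AAV9-GFP, and RPE65, LRAT, TYR and PMEL, defining genes of mature pigment epithelium, were too low to test. Among 12 immune markers only CSF1R was measurable, at 11.8, 10.8 and 10.8 normalized counts against 36, 34.2 and 28.3, while PTPRC, CD14 and CD3E were too low, and 1 of 8 endothelial markers was measurable (EGFL7). Of 16 photoreceptor markers 3 were measurable and 2 of them fell, ROM1 (log2 fold change -0.65 ± 0.12, SE) and the rod phosphodiesterase subunit PDE6B (-1.07 ± 0.22). The log2 fold changes below are AAV9-AIPL1wt over AAV9-GFP, with their SE.

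By the thresholds of the study, an adjusted p under 0.005 and a fold change of at least 2.99, 220 genes (1.6% of those tested) were higher with AAV9-AIPL1wt and 502 (3.61%) were lower. In 220 of the higher genes (1.6% of those tested) and 501 of the lower ones (3.61% of those tested), all 3 libraries of one vector lay outside the range of the other. Over all 13896 genes tested, DEG or not, AAV9-AIPL1wt lay above every AAV9-GFP library in 3849 genes and below in 3898. At an adjusted p under 0.05 alone, the rule used below for members of gene lists, 3553 genes (25.6%) were higher and 3549 (25.5%) lower, with a median log2 fold change over all genes of 0.018. Counts of list members below are to be read against these shares. The test is edgeR's quasi-likelihood test with Benjamini-Hochberg adjustment. Without AAV9-AIPL1wt replicate 2 the numbers of differentially expressed genes (DEGs) were 173 and 367, and without replicate 1 they were 225 and 493. The plot of level against fold shows each gene tested.

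**Figure D1:**
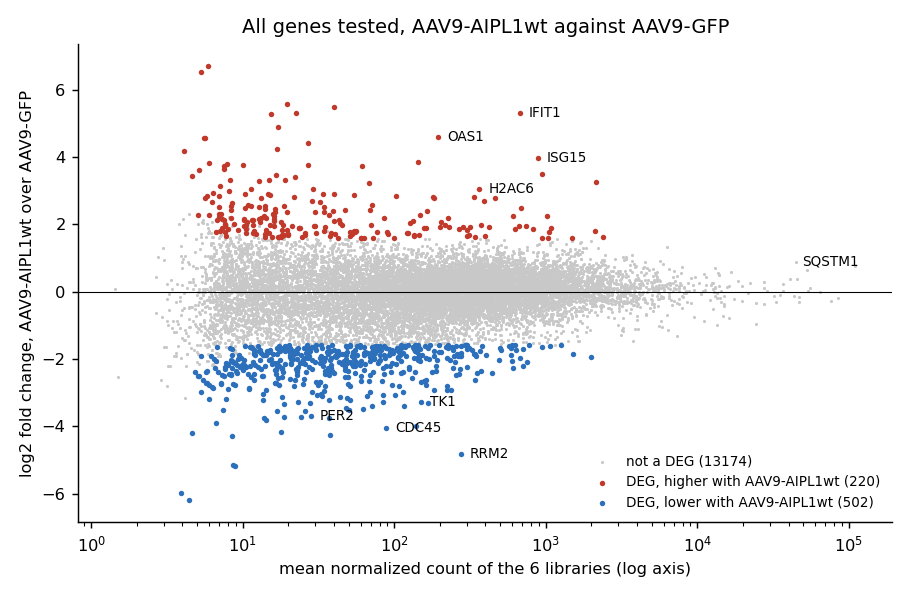
Each point is 1 of the 13896 genes tested, with its mean normalized count over the 6 libraries (log axis) and its log2 fold change, AAV9-AIPL1wt over AAV9-GFP. The 220 DEGs that were higher are red, the 502 that were lower are blue, and the others are grey; IFIT1 stands at 5.30 and RRM2 at -4.82.

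Genes that answer interferon rose with AAV9-AIPL1wt. Of 67 interferon-stimulated genes 57 were measurable: 44 rose, 2 fell and 11 did not pass the test, with a median log2 fold change of 1.29 against 0.018 for all genes, and 25 of the 44 were DEGs. Higher calls made up 77.2% of the list, against the 25.6% of all genes tested. RSAD2 and OAS2 passed the filter on low counts through AAV9-AIPL1wt alone, with 107 and 30 reads against 2 and 1 with AAV9-GFP. Members kept that way could only be called higher. The count was 42 without AAV9-AIPL1wt replicate 1 and 45 without replicate 2. Because RNA was taken from whole cultures, more cells that respond and more RNA per responding cell cannot be told apart.

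The promoters of 4 of these genes are shown because they carry the letters that interferon-activated factors are known to read, the interferon-stimulated response element (ISRE). Each line gives the 250 bases before the start of the gene in RefSeq (GRCh38.p14), 5′ to 3′ on the strand of the gene, and the capitals mark the ISRE core, GAAA and GAAA set 2 bases apart, on either strand. Neighbouring matches share bases in ISG15.
IFIT1, chr10:89392373-89392622, plus strand: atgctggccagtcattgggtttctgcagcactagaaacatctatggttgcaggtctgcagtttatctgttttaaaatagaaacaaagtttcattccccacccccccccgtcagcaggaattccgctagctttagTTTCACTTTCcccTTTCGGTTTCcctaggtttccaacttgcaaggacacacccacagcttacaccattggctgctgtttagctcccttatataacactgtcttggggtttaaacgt
ISG15, chr1:1013247-1013496, plus strand: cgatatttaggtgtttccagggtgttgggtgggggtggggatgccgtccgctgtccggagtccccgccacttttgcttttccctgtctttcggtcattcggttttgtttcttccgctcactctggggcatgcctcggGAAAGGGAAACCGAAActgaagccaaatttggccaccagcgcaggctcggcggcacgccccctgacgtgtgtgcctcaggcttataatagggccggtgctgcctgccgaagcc
IFI6, chr1:27672193-27672442, minus strand: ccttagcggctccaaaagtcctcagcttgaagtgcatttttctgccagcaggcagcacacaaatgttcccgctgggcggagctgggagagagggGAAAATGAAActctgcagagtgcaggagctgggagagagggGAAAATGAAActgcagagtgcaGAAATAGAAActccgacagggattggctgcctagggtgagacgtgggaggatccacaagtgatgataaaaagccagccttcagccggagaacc
IFI44L, chr1:78620198-78620447, plus strand: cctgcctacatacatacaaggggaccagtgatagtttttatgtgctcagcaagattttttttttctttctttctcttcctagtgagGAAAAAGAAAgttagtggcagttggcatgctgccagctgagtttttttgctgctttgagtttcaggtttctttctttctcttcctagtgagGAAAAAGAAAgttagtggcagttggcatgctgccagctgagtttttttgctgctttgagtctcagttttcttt
In IFIT1 both cores begin 116 and 103 bases before the start, and in ISG15 they begin 113 and 107 bases before it. IFI6 holds 3 cores and IFI44L holds 2. A match is a run of letters and not a measured binding site.

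IFIT1, which binds viral RNA that lacks the host's cap structure and lies at chr10:89392546-89406487, had 1198, 1506 and 1234 normalized counts with AAV9-AIPL1wt and 38.1, 31.3 and 30.4 with AAV9-GFP. The groups were far apart, with a log2 fold change of 5.30 ± 0.17 and an edgeR adjusted p of 2.68e-13. The non-transduced control had 30.1 and 43.7.

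ISG15, a ubiquitin-like protein that is attached to others in the antiviral state, had 2018, 1397 and 1574 against 133, 99.6 and 86.0, a log2 fold change of 3.97 ± 0.17 (adjusted p = 2.2e-11). IFI6, a membrane protein of the endoplasmic reticulum, had 2324, 1040.2 and 1831 against 204, 112 and 149 (3.48 ± 0.24). In all of these the lowest AAV9-AIPL1wt library was several times above the highest AAV9-GFP library.

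The oligoadenylate synthetases, which make the 2′-5′ oligoadenylate that turns on RNase L, rose together. OAS1 had 454, 317 and 356 against 30.9, 9.49 and 6.30, with a log2 fold change of 4.59 ± 0.30 that was 5.56 without AAV9-GFP replicate 1. OAS3 had 1363, 1097 and 1053 against 281, 147 and 199 (2.49 ± 0.20). Both were also called by edgeR with an adjusted p of 5.02e-09 and 3.16e-08. OAS2 was scarce, with 9, 9 and 12 reads against 0, 1 and 0, a ratio of 32.6 with a 95% counting interval of 5.42 to 1330.0. OASL, a relative without the enzyme activity, had 23.6, 8.97 and 18.3 against 3.09, 4.74 and 4.2.

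MX1, a GTPase that traps viral nucleoprotein, had 163, 93.3 and 117 against 12.3, 13.3 and 13.6 (3.22 ± 0.27, adjusted p = 4.64e-08). RSAD2, the enzyme viperin that makes a chain-terminating nucleotide, had 34, 46 and 27 reads against 2, 0 and 0, a ratio of 58.1 with a 95% counting interval of 15.7 to 486.0. The intervals cover counting error only, and reads are not independent molecules. IFIT3 (log2 fold change 2.69), HERC6 (2.03), PLSCR1 (1.98), USP18 (1.83), which removes ISG15 from its targets, and IRF9 (1.78) rose as well. STAT2 rose less, with a log2 fold change of 0.49. The 2 members that fell were TRIM22 (-0.43) and TRANK1 (-1.28), and among those that did not pass were RIGI (0.11), DHX58 (0.33), PML (0.13) and SAMD9L (0.37, adjusted p = 0.0956).

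**Figure D2:**
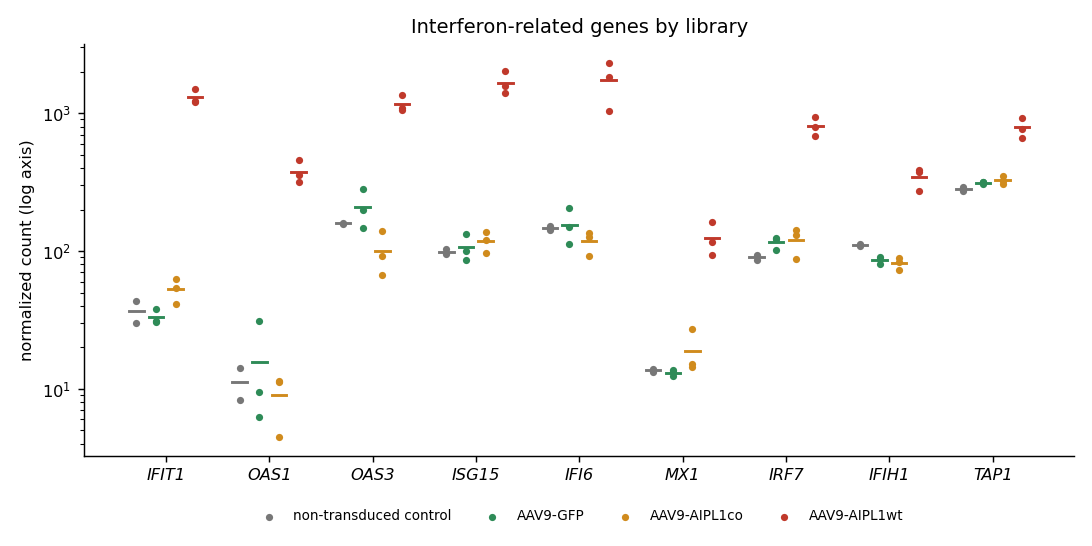
Normalized counts (log axis) of 9 interferon-related genes in each library; points are libraries and bars are group means, for the non-transduced control (n = 2), AAV9-GFP, AAV9-AIPL1co and AAV9-AIPL1wt (n = 3 each). For each gene all 3 AAV9-AIPL1wt libraries lie above the 8 others, with IFIT1 at 1198, 1506 and 1234 against 38.1, 31.3 and 30.4 with AAV9-GFP.

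Most of these genes were also higher with the native than with the codon-optimized vector. In the direct test of AAV9-AIPL1wt against AAV9-AIPL1co, 2676 genes (19.3%) were higher and 3095 (22.3%) lower over all genes, and of the 57 interferon-stimulated genes 47 were higher and 1 lower, with a median log2 fold change of 1.37. IFIT1 had 41.0, 54.2 and 62.6 normalized counts with AAV9-AIPL1co, and its log2 fold change of AAV9-AIPL1wt over AAV9-AIPL1co was 4.65 ± 0.16 (edgeR adjusted p = 9.1e-13). The median difference of AAV9-GFP from the non-transduced control over the same genes was -0.058, and that of AAV9-AIPL1wt from the control was 1.32. Both are partly mixed with file date. In the plot of the interferon-related genes by library, the AAV9-AIPL1wt libraries lie above those of the other 3 groups.

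The sensors and adaptors that lie upstream of interferon moved in part. Of 22 measurable members 11 rose, 2 fell and 9 did not pass, with a median log2 fold change of 0.35. IRF7, the factor that amplifies interferon production, had 933, 790.0 and 686 normalized counts against 121, 125 and 102 (2.78 ± 0.16, edgeR adjusted p = 8.14e-10). IFIH1, which encodes the sensor of long double-stranded RNA MDA5, had 388, 274 and 373 against 80.2, 88.2 and 90.2 (1.99 ± 0.15). SAMHD1, which breaks down deoxynucleotides, EIF2AK2, the kinase PKR, and MYD88, an adaptor of Toll-like receptors, rose with log2 fold changes of 1.54, 1.39 and 1.12. MAVS, the adaptor of the RNA sensors on mitochondria, rose by 0.55 ± 0.091. STING1, CGAS, TBK1 and IRF3, members of the DNA-sensing route, did not pass the test. TLR3 was lower, with 3.94, 5.38 and 3.24 against 19.5, 11.4 and 9.44 (-1.63 ± 0.49, adjusted p = 0.00969), a call that was lost without AAV9-GFP replicate 1 (adjusted p = 0.068).

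Of 8 interferon genes only IFNE, an interferon of epithelia, passed the filter on low counts. It fell, with 10.4 ± 1.45 normalized counts against 20.5 ± 1.34 (SD, n = 3 each, with no overlap; -0.97 ± 0.33, edgeR adjusted p = 0.0194), a call that was lost without AAV9-AIPL1wt replicate 2 (adjusted p = 0.0704), without AAV9-GFP replicate 3 (0.061), within the first date (0.0636) and by DESeq2 (0.062). The 7 other interferon genes IFNB1, IFNA1, IFNL1, IFNL2, IFNL3, IFNK and IFNG had 2 reads in all with AAV9-AIPL1wt (1 each on IFNA1 and IFNK) and 0 with AAV9-GFP, and none reached more than 3 reads in a group. The chemokine genes CXCL10 and CXCL11, which interferon induces in many cells, had 0 reads in all 6 libraries. Of 12 measurable interferons, receptors and regulators 2 rose and 2 fell (16.7% each, against 25.6% and 25.5% of all genes tested). The feedback inhibitor SOCS3 rose, with 108, 106 and 59.3 against 32.9, 39.8 and 27.3 (1.44 ± 0.23). The receptor-bound kinase TYK2 fell, with 429, 379 and 437 against 730.5, 772 and 698 (-0.82 ± 0.10).

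Antigen presentation was mixed. Of 21 genes of the MHC class I route 8 rose and 7 fell. The peptide pump TAP1 rose (930.3, 664 and 767 against 306, 315 and 315, log2 fold change 1.33 ± 0.12), and so did NLRC5, the activator of class I genes (0.82 ± 0.16). The immunoproteasome subunits PSMB9 (-1.12 ± 0.25) and PSMB10 (-0.81 ± 0.21) and the chaperones calreticulin (CALR, -0.87 ± 0.073) and PDIA3 (-0.84 ± 0.098) fell.

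Of 25 measurable NF-κB targets and components 9 rose, 3 fell and 13 did not pass, with a median of 0.22. With all 12 libraries 5 rose and 1 fell. IER3, an early survival gene, rose most (1891, 1570.2 and 1421 against 583, 617 and 540.4, 1.49 ± 0.12, adjusted p = 2.43e-08). Its level with AAV9-AIPL1co was 1660.2, 1651 and 1293, and the vectors with AIPL1 did not pass the test against each other (0.082 ± 0.11, adjusted p = 0.585). The inflammatory cytokine IL6 had 15.7, 14.3 and 15.1 against 13.4, 12.3 and 6.30 (0.48 ± 0.34, adjusted p = 0.248). Of the interleukin-1 family 13 genes were measurable, 3 rose (23.1%) and 4 fell (30.8%), against 25.6% and 25.5% of all genes tested. The lower count was 2 without AAV9-GFP replicate 2, within the first date or with all 12 libraries. The receptor antagonist IL1RN rose (77.4, 72.6 and 48.5 against 24.7, 35.1 and 11.5, 1.45 ± 0.27), and the alarmin IL33 fell (23.6, 17 and 18.3 against 81.3, 81.6 and 68.2, -1.99 ± 0.24). IL1RN had 387, 447 and 372 with AAV9-AIPL1co and was lower with AAV9-AIPL1wt (-2.60 ± 0.20, edgeR adjusted p = 3.08e-08). In complement, 3 of 12 genes rose, a count that was 5 without AAV9-AIPL1wt replicate 2 or AAV9-GFP replicate 1, and 2 fell, C5 (-1.80 ± 0.37) and C1RL (-1.48 ± 0.23).

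Over all DEGs the ISRE core was found in 20 of the 129 higher genes with a RefSeq promoter window of 300 bases (15.5%), in 6 of 362 lower genes (1.66%) and in 284 of 10488 genes tested (2.71%). Among the interferon-stimulated genes it stood in 26 of 43 (60.5%). These shares are a description of the sequences.

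**Figure D3:**
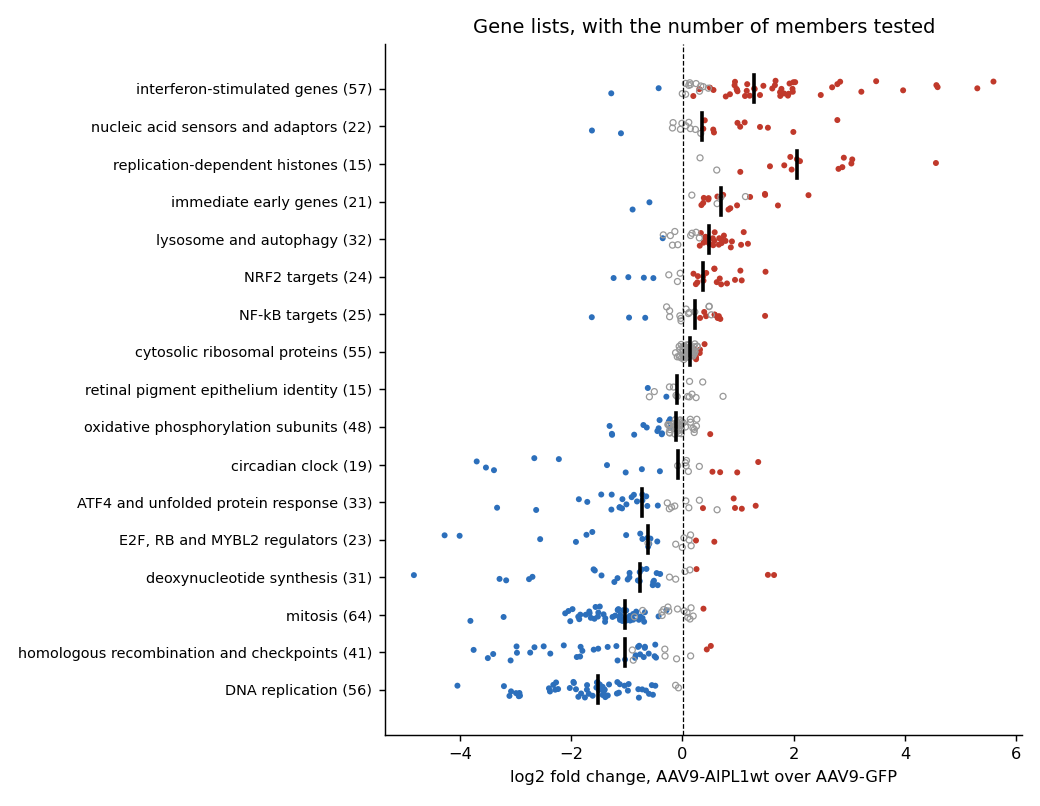
Log2 fold change, AAV9-AIPL1wt over AAV9-GFP, of each measurable member of 17 gene lists; red and blue points passed the test upwards and downwards (adjusted p under 0.05), open points did not, black bars are list medians and the dashed line is the median of all genes, 0.018. The interferon-stimulated genes have a median of 1.29 and the DNA replication genes one of -1.51.

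Genes of DNA synthesis fell with AAV9-AIPL1wt. Of 56 measurable genes of DNA replication 54 fell, 0 rose and 2 (POLE3 and RFC1) did not pass, with a median log2 fold change of -1.51, and 25 were DEGs. Lower calls made up 96.4% of the list, against the 25.5% of all genes tested. The summed level of the list was 7844, 7210 and 9175 normalized counts with AAV9-AIPL1wt and 21675, 18691 and 23220 with AAV9-GFP, with no overlap. The count was 50 without AAV9-AIPL1wt replicate 1 and 52 without replicate 2.

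Of these and the related genes of nucleotide supply and E2F control, 4 promoters are shown because they hold an E2F site. Capitals mark TTTCCCGC or TTTGGCGC on either strand. The bases are again the 250 before the RefSeq start (GRCh38.p14).
E2F2, chr1:23531234-23531483, minus strand: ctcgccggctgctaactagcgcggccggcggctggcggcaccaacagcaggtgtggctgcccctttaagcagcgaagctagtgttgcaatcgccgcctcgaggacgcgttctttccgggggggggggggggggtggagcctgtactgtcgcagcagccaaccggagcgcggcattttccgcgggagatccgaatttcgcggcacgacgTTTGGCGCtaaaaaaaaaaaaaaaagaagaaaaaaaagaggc
GINS2, chr16:85688955-85689204, minus strand: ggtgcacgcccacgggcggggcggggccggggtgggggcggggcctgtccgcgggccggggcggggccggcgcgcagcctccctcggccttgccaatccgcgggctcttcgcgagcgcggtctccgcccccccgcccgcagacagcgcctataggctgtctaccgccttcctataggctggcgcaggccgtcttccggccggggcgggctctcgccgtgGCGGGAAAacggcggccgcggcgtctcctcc
MCM6, chr2:135876444-135876693, minus strand: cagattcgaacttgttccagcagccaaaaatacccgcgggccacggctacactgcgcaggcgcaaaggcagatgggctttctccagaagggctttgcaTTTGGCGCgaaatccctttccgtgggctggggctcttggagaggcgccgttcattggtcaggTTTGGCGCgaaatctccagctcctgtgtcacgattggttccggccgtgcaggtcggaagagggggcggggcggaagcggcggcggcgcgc
TYMS, chr18:657403-657652, plus strand: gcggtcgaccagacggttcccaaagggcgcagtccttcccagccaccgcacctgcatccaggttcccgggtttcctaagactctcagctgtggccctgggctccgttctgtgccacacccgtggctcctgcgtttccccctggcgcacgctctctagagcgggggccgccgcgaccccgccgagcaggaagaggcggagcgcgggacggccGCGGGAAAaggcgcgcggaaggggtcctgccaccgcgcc
The sites begin 42 bases before the start in E2F2, 31 in GINS2 and 39 in TYMS, and MCM6 has 2, the nearer one 90 bases before it. In windows of 300 bases an E2F site stood in 31 of 362 lower DEGs (8.56%), in 7 of 129 higher DEGs (5.43%) and in 391 of 10488 genes tested (3.73%). It stood in 17 of 46 genes of DNA replication (37.0%), in 8 of 20 of the E2F and RB regulators (40.0%) and in 3 of 54 genes of mitosis (5.56%). When only the 250 upstream bases were searched, the share was 5.80% in the lower DEGs, 5.43% in the higher DEGs and 3.14% in all genes. It was 23.9% in DNA replication, 35.0% in the E2F and RB regulators and 9.30% in the interferon-stimulated genes, which had 11.6% in the longer window.

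Genes of the helicase that opens the replication fork were among them. CDC45, its activator, had 6.56, 10.8 and 11.9 normalized counts with AAV9-AIPL1wt and 183, 125 and 191 with AAV9-GFP (-4.04 ± 0.28, edgeR adjusted p = 6.07e-09). The GINS subunits GINS4 (14.4, 8.07 and 19.4 against 121, 106 and 128, -3.11 ± 0.25) and GINS2 (32.8, 11.7 and 34.5 against 230.5, 157 and 219, -2.99 ± 0.26) fell, and so did MCM10 (9.19, 14.3 and 29.1 against 146, 125 and 184, -3.08 ± 0.26). MCM2 to MCM7, the ring of the helicase, fell with log2 fold changes from -1.40 (MCM2) to -2.93 (MCM6). Of the polymerases, the primase subunit PRIM1 had 5.25, 4.48 and 11.9 against 76.1, 55.0 and 70.3 (-3.21 ± 0.32) and the polymerase epsilon subunit POLE2 6.56, 5.38 and 11.9 against 61.7, 57.9 and 64.0 (-2.94 ± 0.28). The sliding clamp PCNA (log2 fold change -1.50), CDC6 (-2.23), which helps to load the helicase, and the ligase LIG1 (-2.40) fell too.

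Genes of deoxynucleotide supply fell as well. Of 31 genes 24 fell, 3 rose and 4 did not pass, with a median of -0.77. RRM2, the regulated subunit of ribonucleotide reductase at chr2:10120698-10211725, had 15.7, 10.8 and 30.2 against 566, 373 and 657, a log2 fold change of -4.82 ± 0.28 (edgeR adjusted p = 9.49e-10), the largest among lower DEGs with at least 50 normalized counts in the higher group. The non-transduced control had 462 and 628. TK1, the thymidine kinase of S phase, had 17.1, 35.9 and 28.0 against 316, 204 and 301 (-3.29 ± 0.22). Thymidylate synthase TYMS had 31.5, 36.8 and 51.8 against 275, 232 and 277 (-2.69 ± 0.18). IMPDH2, of guanine nucleotide synthesis, was a DEG in the other direction (198, 207 and 213 against 68.9, 69.3 and 58.8, 1.65 ± 0.14).

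**Figure D4:**
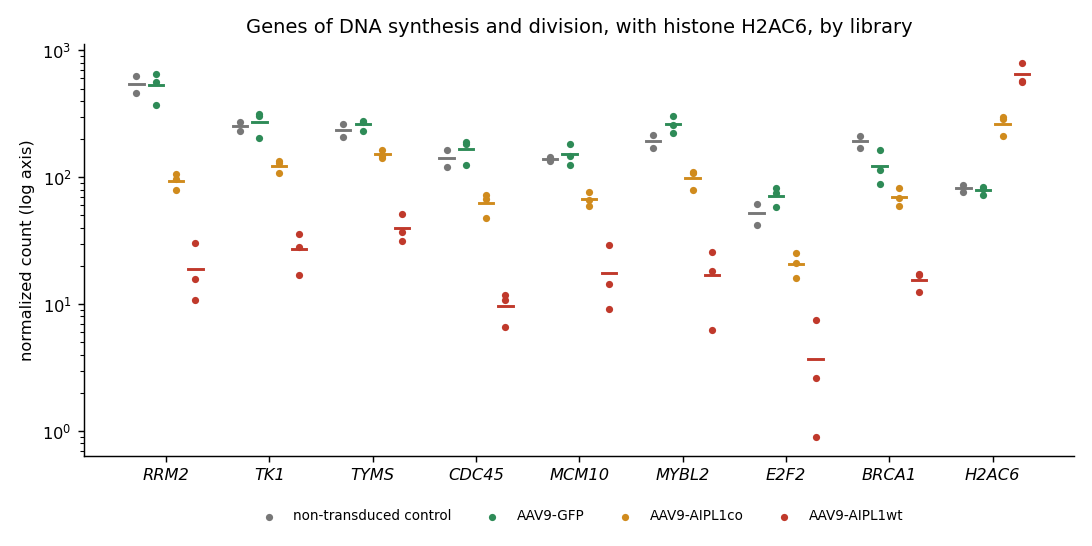
Normalized counts (log axis) of 8 genes of DNA synthesis and division and of the histone gene H2AC6 in each library; points are libraries and bars are group means, for the non-transduced control (n = 2), AAV9-GFP, AAV9-AIPL1co and AAV9-AIPL1wt (n = 3 each). The AAV9-AIPL1wt libraries lie below the 8 others in the first 8 genes and above them in H2AC6, with RRM2 at 15.7, 10.8 and 30.2 against 566, 373 and 657 with AAV9-GFP.

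The regulators of this program were lower as well. Of 23 measurable E2F, RB and MYBL2 regulators 14 fell, 2 rose and 7 did not pass. E2F2, an activating E2F, had 2.62, 0.897 and 7.55 against 75.1, 57.9 and 81.8 (-4.27 ± 0.39, -5.35 without AAV9-AIPL1wt replicate 3), and E2F1 had 134, 68.2 and 133 against 441, 351 and 448 (-1.91 ± 0.20). MYBL2, which with other factors switches on the genes of late S phase and mitosis, had 18.4, 6.28 and 25.9 against 257, 225 and 303 (-4.0 ± 0.27, edgeR adjusted p = 5.57e-09). The pocket protein RBL1 (-1.72 ± 0.28) and the chromatin remodeler HELLS (26.2, 34.1 and 51.8 against 207, 179 and 282, -2.56 ± 0.23) fell. E2F8, chosen after its values were seen, was below the filter with 0 reads in the AAV9-AIPL1wt libraries and 9, 9 and 8 with AAV9-GFP, at least 7.98-fold lower if 3 reads over the group are taken as the floor.

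In G1, cyclin E transcripts fell: CCNE1 had 61.7, 39.5 and 44.2 against 118, 111 and 145 (-1.39 ± 0.20) and CCNE2 6.56, 8.97 and 6.47 against 44.2, 26.6 and 43 (-2.32 ± 0.36). The inhibitor of cyclin-dependent kinases CDKN2B rose, with 554, 879 and 569 against 279.8, 329 and 283 (1.17 ± 0.15), and CDKN2A fell, with 10.5, 13.5 and 9.71 against 36, 23.7 and 30.4 (-1.39 ± 0.29). Over 18 genes of this list 3 rose and 11 fell. The higher count was 1 without AAV9-AIPL1wt replicate 2, within the first date or with all 12 libraries. Of 29 p53 targets 5 rose and 13 fell. Among the latter MDM2, the ligase that degrades p53, had 369, 475 and 478 against 1064, 929 and 1062 (-1.20 ± 0.11), and the electron donor FDXR had 127, 122 and 94.9 against 469, 425 and 401 (-1.91 ± 0.14).

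Genes of repair by homologous recombination were lower. Of 41 genes of recombination and checkpoints 33 fell, 2 rose and 6 did not pass, with a median of -1.03 and 16 DEGs. RAD51AP1, a protein of strand exchange, had 2.62, 5.38 and 6.47 against 61.7, 42.7 and 103 (-3.75 ± 0.43). BRCA1 had 17.1, 12.6 and 17.3 against 114, 89.2 and 165 (-2.98 ± 0.27, edgeR adjusted p = 9.23e-08), and the nuclease EXO1 3.94, 9.86 and 15.1 against 117, 78.7 and 146 (-3.50 ± 0.32). PKMYT1, a kinase that restrains entry into mitosis, had 24.9, 12.6 and 23.7 against 241, 160.3 and 229.8 (-3.40 ± 0.23), and ASF1B, a chaperone that hands new histones to the fork, had 31.5, 16.1 and 45.3 against 328, 245 and 333 (-3.31 ± 0.23).

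Mitosis genes fell too. Of 64 genes 49 fell, 1 rose and 14 did not pass, with a median of -1.02 and 14 DEGs. The largest changes were in proteins of the centromere: CENPU had 3.94, 13.5 and 10.8 against 113, 57.9 and 109 (-3.21 ± 0.35), CENPI 6.56, 21.5 and 18.3 against 67.9, 64.5 and 78.7 (-2.11 ± 0.26), and the kinetochore subunit SPC25 had 0, 2 and 3 reads against 30, 23 and 26. Several defining genes of mitosis did not pass, among them CCNB1, AURKA, PLK1, CENPA, CENPE and CENPF.

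Against AAV9-AIPL1co, the drop of DNA replication was again called in 48 of 56 genes, with a median log2 fold change of AAV9-AIPL1wt over AAV9-AIPL1co of -1.17 and 0 genes higher. For recombination and checkpoints 30 of 41 were lower (median -0.81). For mitosis 18 of 64 were lower (median -0.25), to be read against the 22.3% of lower calls over all genes. RRM2 had 106, 79.9 and 96.1 normalized counts with AAV9-AIPL1co, between the AAV9-AIPL1wt and the AAV9-GFP libraries, and differed from AAV9-AIPL1wt by -2.33 ± 0.32 (edgeR adjusted p = 1.99e-05). The median difference of AAV9-GFP from the non-transduced control, which is partly mixed with file date, was 0.16 in DNA replication and -0.39 in mitosis.

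Histone genes rose. Replication-dependent histone mRNAs are made in S phase and as a rule end in a stem-loop without a poly(A) tail, and the libraries were selected for poly(A) RNA, so the reads come from the share of these transcripts that was captured. Of 62 such genes 15 were measurable, and 13 rose, 0 fell and 2 did not pass, with a median log2 fold change of 2.06 and 11 DEGs. The filter on low counts keeps a gene that is measurable in 1 group alone. H2BC6 was kept through AAV9-AIPL1wt, with 8, 12 and 10 reads there and 0, 0 and 1 with AAV9-GFP. A member kept that way could only be called higher, so the counts and median of this list lean upwards. Their summed level was 2841, 4004 and 2629 normalized counts with AAV9-AIPL1wt and 951, 711 and 729 with AAV9-GFP. The sequences of these genes are much alike, and only uniquely aligned reads were counted.

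H2AC6, at chr6:26124145-26139116 in the histone cluster, had 573, 799 and 565 against 72.0, 83.5 and 80.8 (3.04 ± 0.17, edgeR adjusted p = 8.14e-10). H2BC5 had 270.3, 417 and 259 against 47.3, 46.5 and 42.0 (2.81 ± 0.22), H2BC4 had 53.8, 84.3 and 72.3 against 9.26, 10.4 and 8.39 (2.90 ± 0.27), and the linker histone gene H1-4 had 102, 117 and 69.0 against 14.4, 16.1 and 8.39 (2.87 ± 0.28). H2BC8 had 27.6, 102 and 24.8 against 12.3, 4.74 and 2.10, where AAV9-AIPL1wt replicate 2 stood far above the others. Its log2 fold change of 3.05 ± 0.56 was 2.02 without that library and 3.93 without AAV9-GFP replicate 1. Against AAV9-AIPL1co 11 of the 15 were higher and 0 lower, with a median of 1.29. Of 11 replacement histone genes, whose mRNAs carry a poly(A) tail, 4 rose and 2 fell. MACROH2A1, a variant of repressed chromatin, was one that fell (-0.99 ± 0.098).

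Clock genes split. The circadian clock is a loop in which CLOCK and BMAL1 switch on the PER and CRY repressors and the output factors DBP, TEF and HLF. Of 19 measurable members 9 fell, 4 rose and 6 did not pass, and 5 of those that fell were DEGs. PER3 had 18.4, 5.38 and 15.1 against 129, 120.5 and 138 (-3.39 ± 0.26, edgeR adjusted p = 2.23e-08), PER2 had 2.62, 5.38 and 3.24 against 54.5, 43.6 and 58.8 (-3.70 ± 0.36), and the output factors HLF (10.5, 5.38 and 8.63 against 81.3, 92.0 and 104, -3.53 ± 0.26) and TEF (31.5, 9.86 and 29.1 against 137, 154 and 136, -2.66 ± 0.25) fell too. The repressor CIART fell (-2.22 ± 0.34). The BMAL1 transcript was higher, with 190.3, 302 and 211 against 73.0, 98.7 and 104 (1.36 ± 0.20), and PER1 (-0.085) and CLOCK (0.073) did not pass. Against AAV9-AIPL1co, TEF differed by -2.79 ± 0.24 (adjusted p = 1.71e-07) and PER2 by -1.45 ± 0.47 (adjusted p = 0.0186). The clock time at which cultures were harvested is not given in the sources used here.

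**Figure D5:**
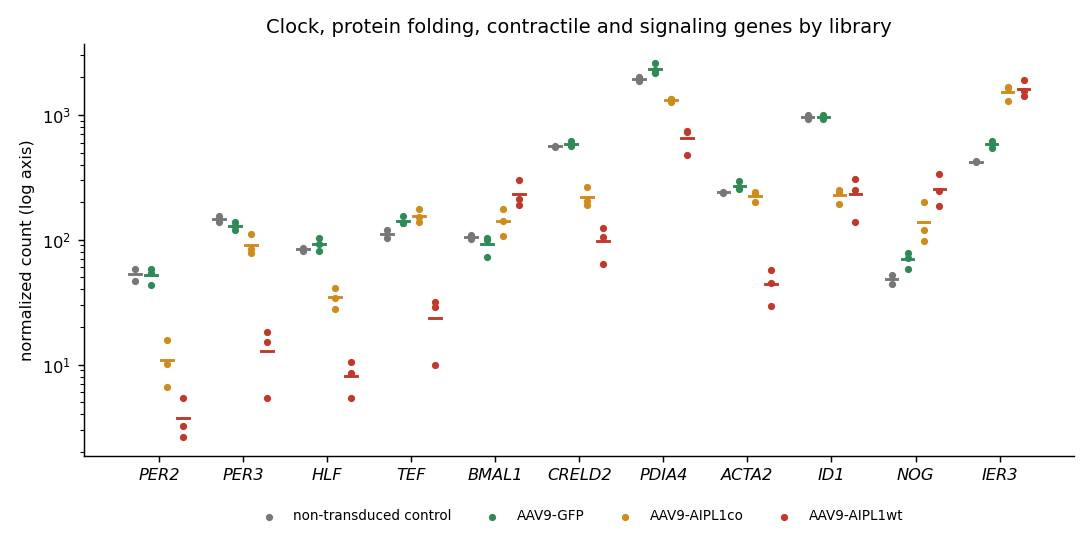
Normalized counts (log axis) of 11 genes of the clock, of protein folding in the endoplasmic reticulum, of the cytoskeleton and of signaling in each library; points are libraries and bars are group means, for the non-transduced control (n = 2), AAV9-GFP, AAV9-AIPL1co and AAV9-AIPL1wt (n = 3 each). PER2 stands at 2.62, 5.38 and 3.24 with AAV9-AIPL1wt against 54.5, 43.6 and 58.8 with AAV9-GFP, and ID1 at 252, 138 and 304 against 949.6, 996 and 933.

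Of 33 genes of ATF4 and the unfolded protein response 20 fell, 5 rose and 8 did not pass, with a median of -0.72. CRELD2, an early marker of stress in this compartment, had 123, 63.7 and 105 against 591, 615 and 562 (-2.63 ± 0.17, edgeR adjusted p = 5.02e-09). The disulfide isomerase PDIA4 had 741, 478 and 735 against 2276, 2622 and 2168 (-1.86 ± 0.13), and PSPH, the last step of serine synthesis, had 82.7, 34.1 and 96.0 against 246, 211 and 223 (-1.71 ± 0.22). CHAC1, an ATF4 target that degrades glutathione, had 5.25, 0.897 and 4.32 against 65.8, 3.79 and 32.5, where the AAV9-GFP libraries disagreed and replicate 2 was below 2 of the AAV9-AIPL1wt libraries (-3.33 ± 0.79, -2.38 without AAV9-GFP replicate 1). SLC3A2, the heavy chain of amino acid transporters, was higher (11821, 8328 and 7009 against 3995, 3924 and 2976, 1.32 ± 0.14).

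Sterol and fatty acid synthesis had 15 genes lower and 6 higher of 32, and the higher count was 10 without AAV9-AIPL1wt replicate 2 and 0 with all 12 libraries, where 7 were lower. TM7SF2 (-1.74 ± 0.19), MVD (266, 100.4 and 167 against 522, 495 and 371, -1.41 ± 0.28) and PMVK (-1.37 ± 0.15), enzymes of the route to cholesterol, and acetyl-CoA carboxylase ACACA (-1.05 ± 0.13) fell. Against AAV9-AIPL1co 25 of 32 were lower and 0 higher, with a median of -0.81. Of 36 genes of hypoxia and glycolysis 20 fell, a count that was 9 with all 12 libraries, and 6 rose. PDK1, a kinase that limits the entry of pyruvate into mitochondria, had 34.1, 54.7 and 57.2 against 209, 143 and 215 (-1.93 ± 0.22), and MIR210HG, the host transcript of a hypoxia-induced microRNA, had 23.6, 17.9 and 45.3 against 123, 78.7 and 106 (-1.83 ± 0.26).

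Lysosomal and autophagy genes were higher as a group with small folds: 22 of 32 rose and 1 fell, with a median of 0.48. The autophagy receptor SQSTM1 had 70845, 49203 and 54882 against 34012, 32679.5 and 27680.0 (0.89 ± 0.12, edgeR adjusted p = 7.5e-06), and the sialidase NEU1 1651, 1231 and 1119 against 562, 703 and 498 (1.18 ± 0.14). The ATG8 relative GABARAPL1 (1.1 ± 0.16) and the calcium channel MCOLN1 (1.05 ± 0.17) rose. NEU1 and MCOLN1 were lower than with AAV9-AIPL1co (-0.55 ± 0.13 and -0.79 ± 0.16). Of 24 targets of the oxidative stress factor NRF2 17 rose and 4 fell, with a median of 0.38. AKR1C3 (468, 562 and 414 against 135, 233 and 144, 1.49 ± 0.17), the cystine transporter SLC7A11 (0.95 ± 0.13) and the sulfiredoxin SRXN1 (1.04 ± 0.17) rose, and the exporter ABCC3 (-1.24 ± 0.18) fell.

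Immediate early genes, which answer growth factors and stress within minutes, were higher: 15 of 21 rose and 2 fell, with a median of 0.69. EGR1, FOSB, ATF3 and KLF4 did not pass. FOS rose by 1.48 ± 0.50, a call that was lost with all 12 libraries (edgeR adjusted p = 0.536). It was also lost without AAV9-AIPL1wt replicate 3 and without AAV9-GFP replicate 1. NR4A1 had 78.7, 46.6 and 63.6 against 15.4, 23.7 and 16.8 (1.72 ± 0.25), ZFP36, which destabilizes cytokine mRNAs, rose by 1.22 ± 0.18, and JUNB by 0.98 ± 0.14, a call that was lost with all 12 libraries (adjusted p = 0.0782). NR4A1 did not pass between the AIPL1 vectors (-0.46 ± 0.20, adjusted p = 0.0671), and ZFP36 did (1.26 ± 0.18, adjusted p = 3.16e-05).

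In TGF-β and BMP signaling 14 of 27 genes rose, a count that was 9 without AAV9-AIPL1wt replicate 2 and 7 within the first date, and 7 fell, of which 5 were DEGs. The targets of BMP signaling ID1 (252, 138 and 304 against 949.6, 996 and 933, -2.07 ± 0.18), ID3 (164, 69.0 and 205 against 508, 550.3 and 511, -1.86 ± 0.22) and ID4 (48.6, 44.8 and 50.7 against 136, 194 and 169, -1.79 ± 0.17) fell with the signal carrier SMAD9 (-2.09 ± 0.23). NOG, which encodes the BMP antagonist noggin, rose (186, 336 and 246 against 58.6, 71.2 and 78.7, 1.89 ± 0.24, edgeR adjusted p = 4.81e-06). ID1 and ID4 did not pass between the AIPL1 vectors (0.0086 ± 0.19 and 0.37 ± 0.21). INHBA, a subunit of activin, fell (49.9, 37.7 and 42.1 against 168, 168 and 171, -1.98 ± 0.19).

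The cytoskeleton and matrix changed in both directions. Of 18 contractile genes 9 fell and 4 rose. Smooth muscle actin ACTA2, a marker of epithelial cells that take on a mesenchymal form, had 57.7, 29.6 and 45.3 against 255, 294 and 265 (-2.66 ± 0.18, edgeR adjusted p = 5.21e-09), and tropomyosin TPM1 3250.2, 3063 and 4196 against 5849, 5051 and 6120.2 (-0.70 ± 0.11). Of 28 matrix genes 14 fell, a count that was 7 without AAV9-GFP replicate 3 and 8 with all 12 libraries, and 9 rose. The collagen COL8A1 (-1.12 ± 0.096) and laminin LAMA4 (-1.43 ± 0.15) fell, and CCN2, a matrix protein induced by TGF-β and YAP, rose (1833, 2758 and 2121 against 619, 806 and 785, 1.6 ± 0.13). Of 28 proteases and inhibitors 8 rose and 7 fell, with the higher count at 5 without AAV9-AIPL1wt replicate 2 or AAV9-GFP replicate 1. TIMP3, the protease inhibitor of the RPE's own basement membrane, rose (1659.9, 3258 and 1727 against 970.2, 968 and 1019.9, 1.17 ± 0.23), and AAV9-AIPL1wt replicate 2 was the highest library.

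Of 55 cytosolic ribosomal protein genes 9 rose and 0 fell, with a median of 0.14, and the higher count ran from 3 (without AAV9-AIPL1wt replicate 1, AAV9-GFP replicate 3 or either control library, with all 12 libraries and with only those compared, and by upper quartile or library size scaling) and 4 (without AAV9-AIPL1co replicate 2) to 17 without AAV9-AIPL1wt replicate 2 and 20 without AAV9-AIPL1wt replicate 3. Of 48 nuclear genes of oxidative phosphorylation 14 fell (29.2%, against 25.5% of all genes tested) and 1 rose, with a median of -0.12. The number that fell was 9 without AAV9-GFP replicate 2 or with all 12 libraries. Among those that fell, the complex III subunit UQCRC2 had 405, 398 and 449.8 against 1004, 986 and 1019.9 (-1.26 ± 0.089). Of 13 mitochondrially encoded genes 5 fell and 1 rose, with log2 fold changes between -0.38 and 0.30. The lower count was 10 with library size scaling, 9 with the upper quartile scaling and 3 with all 12 libraries. PPIA, the reference gene of the study, had 1785, 1391 and 1607 against 1927, 1739 and 1708 (-0.17 ± 0.096, adjusted p = 0.149). Of 27 heat shock and HSP90 co-chaperone genes 9 rose (33.3%) and 7 fell (25.9%), against 25.6% and 25.5% of all genes tested. HSPB8 rose (1.03 ± 0.13), HSPB1 fell (4982, 2748 and 3689 against 8751, 8097 and 7035, -1.07 ± 0.18), and so did FKBP5 (-1.41 ± 0.23), a co-chaperone of steroid receptors.

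Of 16 measurable AIPL1 partners and cone-rod genes 5 rose and 5 fell (31.2% each, against 25.6% and 25.5% of all genes tested). The higher count was 3 without AAV9-AIPL1wt replicate 2, AAV9-GFP replicate 1 or AAV9-GFP replicate 3. It was 2 without either control library, with only the libraries compared, by upper quartile or library size scaling and with no filter on low counts. PDE6D, which carries prenylated proteins such as PDE6 subunits, had 36.7, 17 and 32.4 against 92.6, 102 and 104 (-1.83 ± 0.21, edgeR adjusted p = 1.38e-06). FNTA, a subunit of the enzyme that farnesylates proteins, rose (434, 431 and 388 against 260.3, 259 and 263, 0.68 ± 0.11), and NUB1, a protein that binds AIPL1, had 450.1, 508 and 454 against 473, 456 and 436 (0.049 ± 0.10, adjusted p = 0.715). The telomere protein genes POT1 (36.7, 35.0 and 55.0 against 104, 78.7 and 121, -1.25 ± 0.21) and ACD (-0.95 ± 0.16) fell, and TINF2 rose (0.38 ± 0.098).

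Of 25 genes that AAV uses or that act on its genome 6 rose and 7 fell. KIAA0319L, the AAV receptor, was lower with AAV9-AIPL1wt (499, 386 and 470.3 against 1143, 974 and 1066, -1.24 ± 0.11, edgeR adjusted p = 6.57e-08), and so were the trafficking subunit VPS52 (-1.21 ± 0.11) and WDR11 (-0.63 ± 0.11). ZNF638, a silencer of DNA that is not integrated, rose (0.90 ± 0.14). For neuronal differentiation 12 genes were measurable: 2 rose and 5 fell, a lower count that was 2 without AAV9-AIPL1wt replicate 2 or AAV9-GFP replicate 2 and 3 without AAV9-GFP replicate 1, and 2 with all 12 libraries. The neuronal tubulin TUBB3 had 21, 20.6 and 31.3 against 75.1, 50.3 and 53.5 (-1.29 ± 0.25), and ankyrin ANK2 13.1, 15.2 and 20.5 against 110.1, 90.1 and 114 (-2.67 ± 0.21). OPN3 (0.38 ± 0.25, adjusted p = 0.222) and KLF4 (0.17 ± 0.17, adjusted p = 0.414), which the study used to follow trans-differentiation, did not pass. Of 13 retinoid genes 4 rose (30.8%) and 3 fell (23.1%), also near the shares of all genes. DHRS3, which reduces retinal, fell (748, 461 and 770.2 against 1936, 2075 and 1611, -1.51 ± 0.14), as did TGM2 (-1.72 ± 0.21).

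Of the 46 genes that the study names in its text or plots, chosen by the study on these samples, 45 were measurable, 20 rose and 15 fell. Among those not yet described, WHRN, a scaffold of photoreceptor and hair cells, had 1396, 1373 and 1079 against 330.2, 355 and 371 (1.86 ± 0.11), and the transporter ABCB5 172, 129 and 118 against 43.2, 22.8 and 26.2 (2.17 ± 0.21). PPARGC1A, a coactivator of mitochondrial genes, had 80, 81.6 and 50.7 against 17.5, 14.2 and 19.9 (2.04 ± 0.24), and the transcription factor MAF 269, 317 and 151 against 38.1, 56.0 and 56.7 (2.29 ± 0.23). ABCB5 and PPARGC1A were lower than with AAV9-AIPL1co (-1.69 ± 0.16 and -1.41 ± 0.17), and MAF did not pass between the AIPL1 vectors (0.27 ± 0.20, adjusted p = 0.284). UAP1L1 rose (1.20 ± 0.17), KLF2 fell (-0.59 ± 0.14), a call that was lost with all 12 libraries (adjusted p = 0.0582), and UCN, GAS1 and ANGPTL2 did not pass.

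Of the other genes with the largest changes, the long non-coding RNA IGFL2-AS1, which the study also names, at chr19:46189029-46203160, had 205, 416 and 180.2 against 18.5, 19.9 and 16.8 (3.86 ± 0.39, edgeR adjusted p = 3.74e-07). AAV9-AIPL1wt replicate 2 was the highest library. The pseudogene IGFL1P1, which lies within it on the opposite strand (chr19:46196238-46197323), had 57.7, 139 and 38.8 against 2.06, 2.85 and 0 (5.49 ± 0.64, 4.73 without AAV9-AIPL1wt replicate 2 and 6.15 without AAV9-GFP replicate 2), and without strand the reads of both cannot be told apart. With AAV9-AIPL1co they had 217, 336 and 536 and 52.2, 73.2 and 90.5, and neither passed the test between the AIPL1 vectors (-0.42 ± 0.27 and 0.18 ± 0.34). IFITM10, of the family of interferon-induced membrane proteins and also named by the study, had 112, 122 and 108 against 9.26, 10.4 and 5.25 (3.75 ± 0.26), and IQCN 78.7, 42.1 and 59.3 against 10.3, 8.54 and 4.2 (2.91 ± 0.32). Among the lower genes ASTN2, which encodes the neuronal protein astrotactin, had 11.8, 4.48 and 8.63 against 109, 75.9 and 77.6 (-3.45 ± 0.30).

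Between the AIPL1 vectors, 146 of the 220 higher DEGs were also higher with AAV9-AIPL1wt than with AAV9-AIPL1co, 9 were lower and 65 did not pass. Of the 502 lower DEGs, 413 were also lower, 1 was higher and 88 did not pass. The comparisons share the AAV9-AIPL1wt libraries. Of the genes with the largest folds there, IFIT1, OAS1, ISG15, IFI6 and RSAD2 are described above, and the 6 lower ones were scarce. LRFN1, a synaptic adhesion gene, had 0 reads with AAV9-AIPL1wt and 3, 17 and 7 with AAV9-GFP, at least 8.29-fold lower with 3 reads over the group as the floor. ECM2, a matrix gene, had 0, 1 and 0 reads against 15, 11 and 25, a ratio of 47.0 with a counting interval of 8.06 to 1890.0, and GDNF-AS1 had the same sums. SRGAP3, NR6A1 and AK7 had 1.31 to 6.47 normalized counts with AAV9-AIPL1wt and 11.5 to 42.2 with AAV9-GFP.

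Of the 220 higher DEGs 69 were long non-coding RNAs (31.4%), as were 80 of the 502 lower ones (15.9%) and 10.7% of all genes tested. The median transcript GC content of the higher DEGs was 51.4% and that of the lower DEGs 47.9%, against 47.7% over all genes. Chromosome 6, which carries the main histone cluster and the MHC, had 29 higher DEGs of 726 genes tested (3.99%), the highest share among the chromosomes. More than 4-fold changes were seen in 120 higher and 265 lower DEGs, and more than 8-fold in 38 and 47. The median AAV9-GFP level was 8.36 normalized counts in the higher DEGs, 63.9 in the lower ones and 172 over all genes tested. The folds of many higher DEGs thus rest on few AAV9-GFP reads.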

How the data were processed

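Poly(A)-selected, unstranded libraries of ARPE-19 cells were sequenced in 60-base reads. The authors aligned them with STAR 2.7.10b to GRCh38 with Gencode 43 and 4 vector sequences, and deposited HTSeq 0.11.1 read counts per gene, neither normalized nor pooled; STAR's own gene counts were identical to them. Rows that name no gene and the vector entries were left out. In R 4.3.3, edgeR 4.0.16 kept 13896 genes (filterByExpr by group), applied TMM and a quasi-likelihood fit of 4 groups to the 11 libraries used in the study (control replicate 1 left out), with a common biological coefficient of variation of 0.101 and Benjamini-Hochberg adjustment across the genes tested. DEGs passed an adjusted p of 0.005 and a fold of 2.99 in either direction, list members 0.05. SEs are the log2 fold change over the root of F. Positions and GC content come from Gencode 44, promoters from RefSeq. The study calls its replicates biological.

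Members, the 41 gene lists and the tests were chosen with earlier results of these data known. Named were the 12 higher and 12 lower DEGs with the largest change among those with a symbol, a mean of at least 50 normalized counts in the higher group and no overlap; up to 6 members of each list with the largest change among those called, otherwise 3 with the highest mean; genes the study names; the 6 DEGs in each direction that differed most from AAV9-AIPL1co; and AIPL1. Others named, such as further list members given by their fold, were chosen after their values were seen, and some genes the rule names are not reported here. The method was tested on simulated data. Alternatives were other libraries, dates, blocks, scalings and filters, DESeq2 1.42.0, limma 3.58.1 voom and glmTreat.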

Additional observations from a re-analysis of the deposited data

Results flagged for a closer look

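Reads on the vector entries lie outside the comparison of genes. Those on the GFP entry GFP_CBg and on the codon-optimized AIPL1 entry were above the 0 counts of the non-transduced control. GFP_CBg had 7 counts in all in the AAV9-GFP libraries and 0 in the other groups. The other GFP entry, GFPg, had 0 in each of the 12 libraries. The codon-optimized AIPL1 entry had 43 counts in the AAV9-AIPL1co libraries and 0 in the others. The native AIPL1 entry had 0 in each of the 12 libraries, AAV9-AIPL1wt included. The groups of 3 libraries were too small to test a single library as an outlier.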

How the results depend on the processing

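The results were set against 28 alternatives. Among the 250 named genes no call changed direction under those that gave a fold for the gene. NUB1, KLF4 and EGFL7, which did not pass the test, changed sign under at least 1 alternative. The direction of each other gene was not followed. Without each of the 11 libraries in turn, higher DEGs numbered 173 to 246 and lower DEGs 367 to 566, interferon-stimulated genes that rose 42 to 46, and DNA replication genes that fell 50 to 54. None of these counts moved by over 1.5 times. Larger moves of the counts over all genes and of some lists follow, with promoter shares that left their counting interval. Those lists were interferon-stimulated genes, replication-dependent histones, DNA replication, mitosis, recombination and checkpoints, and deoxynucleotide synthesis. Of the values of all 57 list counts followed, 26 moved by over 1.5 times without 1 library and 601 did not. Under the other alternatives, glmTreat included, 73 moved and 782 did not. With all 12 libraries, 1986 genes were lower than with AAV9-AIPL1co. By glmTreat, which tests against a fold of 1.5 and so asks for more, 821 genes were higher and 1316 lower than with AAV9-GFP, 324 higher and 799 lower than with AAV9-AIPL1co, and 32 mitosis and 14 deoxynucleotide genes fell. With the 250 upstream bases alone, a narrower window, promoters with an E2F site were 5.80% of lower DEGs and 3.14% of all genes, and those with an ISRE core 2.28% of all genes. DESeq2 gave 190 higher and 470 lower DEGs and limma voom 221 and 510.

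The replicate numbers did not pair the libraries of the 2 vectors: same-numbered libraries deviated together with correlations of 0.20, -0.060 and 0.20, and not every library correlated best with its own number. With the replicate block 192 DEGs were higher and 466 lower, and with the block and GC offsets 183 and 470. Within the first date, 2 libraries a vector, there were 186 and 425. Of 239 named genes that were called, 32 lost the call under at least 1 alternative other than glmTreat, 2 of them DEGs, such as CA9 with all 12 libraries. By glmTreat, 72 of the named genes that were called lost the call. Scaling moved the median log2 fold change of all genes from -0.033 (upper quartile) to 0.024 (relative log expression). Depth limits genes under about 10 counts a library, where the 7 interferon genes not tested and the GFP vector entries lie. The median AAV9-GFP level of the higher DEGs, 8.36 normalized counts, lies there too.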
